A study of Homo sapiens with 26 samples.

Results

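The nuclear-encoded subunits of the respiratory chain and ATP synthase were followed in 26 RNA sequencing libraries of 16HBE cells, an established line from human bronchial epithelium. The members were the protein-coding genes whose names mark them as subunits of complex I (NDUF, not the NDUFAF assembly factors), complex II (SDH), complex III (UQCR), complex IV (COX4 to COX8) or complex V (ATP5), outside chromosomes 7, 8, 11 and 18. This gave 72 of 58735 genes, with 29 in complex I, 3 in complex II, 8 in complex III, 15 in complex IV and 17 in complex V. The chromosome rule left out 18 genes of the same families, among them SDHD of complex II, so complexes are covered in part. The name rule also took in ATP5IF1, an inhibitor of ATP synthase, and ATP5S, now named DMAC2L, which is not a subunit. NDUFA4L2, a paralogue of NDUFA4, was placed in complex I by its name alone.

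Oxidative phosphorylation takes electrons from NADH at complex I and from succinate at complex II, passes them through complex III to oxygen at complex IV, and uses the proton gradient to make ATP at complex V. Most subunits are encoded in the nucleus and imported, whereas a few core subunits of complexes I, III, IV and V are encoded in mitochondrial DNA. Airway epithelium draws ATP from both glycolysis and this chain, and ATP drives its ion transport.

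WT cells (16HBE14o-, WT CFTR) and CF cells (16HBEge, DeltaF508 CFTR) were cultured on Transwells over 7 days with glucose at 5.5 mM (normal) or 17.5 mM (high). The WT line gave 6 libraries at the normal and 5 at the high level, and the CF line gave 6 at each. Another 3 libraries, labelled not polarized, were of the WT line at the normal level. The Transwell protocol, with 2 Transwells pooled per sample, is given in the labels for these 3 as well, so how they were grown is not clear. Since separate cultures are not stated in the labels, a p-value here reflects only how these samples spread, which may be technical. Each genotype was 1 line, so genotype and line cannot be told apart. Libraries were numbered 1 to 6, and the labels do not say what the numbers stand for. The fit carried a term for numbers 4 to 6 against 1 to 3 since earlier results of these data showed a difference along it, and the not polarized libraries, numbered 1 to 3, were placed with the first set.

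Library totals ran from 14658319 to 20413839 counts, and 66 of the 72 members passed the filter on low counts. All 9 airway epithelial markers were tested and had group means of 23.6 to 2317 CPM (counts scaled to a common library total), led by the keratin KRT8. Immune markers had group means of at most 0.0848 CPM. Of the other types, COL1A1 (fibroblast) had group means of 13.3 to 35.0 CPM, and KDR and CDH5 (endothelial) of 8.81 to 33.5 CPM, while the fibroblast markers DCN and LUM had means of at most 0.068 CPM and PECAM1 (endothelial) of at most 0.123 CPM. Bulk RNA cannot separate the number of cells of a type from the RNA per cell.

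Promoter sequences of 60 of the 72 members were found in the RefSeq table for GRCh38.p14, each holding 250 bases before and 50 bases after the gene's start. Letters bound by known regulators of mitochondrial genes were searched on both strands: GCGCATGCG (NRF1), CCGGAAG (the ETS family, to which GABPA belongs), AAGATGGCG (YY1) and GGGCGG (SP1). None of these strings holds another, although the ETS and YY1 letters can share 3 bases. The ETS letters stood in 26.7% of member promoters (16), against 16.2% of 15953 promoters of the protein-coding genes tested and 10.3% of all 35116 promoters in the table. The NRF1 letters stood in 15% (9) against 3.01% and 1.92%, and the YY1 letters in 13.3% (8) against 3.22% and 1.75%. In 75 promoters of mitochondrial ribosomal protein genes, the ETS letters stood in 40%, the YY1 letters in 14.7% and the NRF1 letters in 2.67%. In 73 promoters of cytosolic ribosomal protein genes these were 32.9%, 6.85% and 1.37%. The ETS and YY1 shares were thus not particular to the members. The SP1 letters stood in 61.7% (37), which was below the 65.2% of tested protein-coding genes and above the 45.0% of all promoters. A match of letters is a description of the sequence, not a bound site. The 4 promoters below belong to subunits that were higher in CF than in WT cells in high glucose, and all carry the ETS letters. Of the 18 matched promoters of such members, 8 held the ETS letters and 1 the NRF1 letters. Capitals mark the letters of any of the 4 motifs on either strand, and each sequence is written 5′ to 3′ on the gene's strand.
COX4I1: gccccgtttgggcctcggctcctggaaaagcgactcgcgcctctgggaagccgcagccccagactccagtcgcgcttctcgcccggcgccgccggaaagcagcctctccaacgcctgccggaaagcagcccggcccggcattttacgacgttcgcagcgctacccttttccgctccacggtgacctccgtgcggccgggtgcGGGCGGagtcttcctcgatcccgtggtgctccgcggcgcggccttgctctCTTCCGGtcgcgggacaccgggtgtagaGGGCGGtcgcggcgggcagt
COX5B: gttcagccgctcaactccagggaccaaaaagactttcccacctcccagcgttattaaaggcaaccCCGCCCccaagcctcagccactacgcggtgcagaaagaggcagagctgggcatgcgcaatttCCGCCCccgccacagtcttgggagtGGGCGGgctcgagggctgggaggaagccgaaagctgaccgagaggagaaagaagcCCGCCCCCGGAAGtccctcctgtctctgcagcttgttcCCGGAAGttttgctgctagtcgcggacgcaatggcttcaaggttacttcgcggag
COX6A1: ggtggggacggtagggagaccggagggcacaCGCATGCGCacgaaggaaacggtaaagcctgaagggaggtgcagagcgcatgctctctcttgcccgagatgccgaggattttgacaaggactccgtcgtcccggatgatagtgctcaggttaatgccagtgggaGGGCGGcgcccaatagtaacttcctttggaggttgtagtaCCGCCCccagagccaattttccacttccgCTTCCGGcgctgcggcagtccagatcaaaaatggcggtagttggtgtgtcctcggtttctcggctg
NDUFB7: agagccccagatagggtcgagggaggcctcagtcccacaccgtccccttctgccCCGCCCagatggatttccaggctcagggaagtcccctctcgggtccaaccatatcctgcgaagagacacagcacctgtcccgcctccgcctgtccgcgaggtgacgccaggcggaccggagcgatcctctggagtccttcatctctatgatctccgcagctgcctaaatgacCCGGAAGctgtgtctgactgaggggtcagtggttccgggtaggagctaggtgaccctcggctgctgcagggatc
COX4I1 is on the plus strand (chr16:85799445-85799744), COX5B on the plus strand (chr2:97645812-97646111), COX6A1 on the plus strand (chr12:120437863-120438162) and NDUFB7 on the minus strand (chr19:14572017-14572316). COX5B held the ETS letters in 2 places and COX6A1 also held the NRF1 letters.

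Levels between genes were compared as FPKM, the authors' values per gene length, averaged over all libraries. Complex I was led by NDUFS5, an accessory subunit, at 281 FPKM, and complex V by ATP5F1B, the catalytic beta subunit, at 210 FPKM. COX7C led complex IV at 108 FPKM, UQCRH (the hinge protein) led complex III at 88.9 FPKM, and SDHB, the iron-sulfur subunit, led complex II at 31.2 FPKM, above SDHA (the flavoprotein) at 14.0 FPKM and SDHC (a membrane anchor) at 7.59 FPKM. Where complex IV has tissue isoforms, the widely expressed form carried the signal. COX4I1 stood at 56.9 FPKM and COX4I2, an isoform of lung and hypoxic cells, at 0.0136 FPKM from 4 reads in all. COX6A1 stood at 64.0 FPKM, and the muscle isoform COX6A2 had no read. COX7A2 stood at 80.6 FPKM and the muscle isoform COX7A1 at 0.308 FPKM. COX6B1 stood at 96.1 FPKM and COX6B2, known from testis, at 0.489 FPKM. COX7B stood at 23.3 FPKM, and COX7B2 had no read. The 3 genes for the same c-ring subunit of ATP synthase were nearer to each other, with ATP5MC2 at 30.6, ATP5MC1 at 21.6 and ATP5MC3 at 17.6 FPKM.

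Some low values belong to genes that overlap others. The 10 tested members that overlap another protein-coding gene on the same strand had a median of 3.96 FPKM, against 30.3 FPKM for the 56 others, and they included NDUFA13 at 1.14 FPKM and NDUFA7 at 0.272 FPKM. Overlap with a protein-coding gene on the opposite strand was found for 22 members, NDUFA7, NDUFB8 and NDUFC1 being in both groups, and examples are NDUFA4L2 with SHMT2, COX4I1 with EMC8 and NDUFA3 with TFPT. COX6A1, NDUFA11 and NDUFB8 are among those with a same-strand overlap. The treatment of shared reads and of strand was not given in the sources used here, which leaves the values of these members uncertain.

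Of the 7 comparisons made, the members had the largest median difference between the library numbers. The summed level of all members ran from 5098 to 6568 CPM in the libraries numbered 1 to 3 of the 4 glucose groups and from 4001 to 4848 CPM in those numbered 4 to 6. Within each group the sets did not overlap. The not polarized libraries lay between the sets, at 4868 to 5036 CPM.

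**Figure D1:**
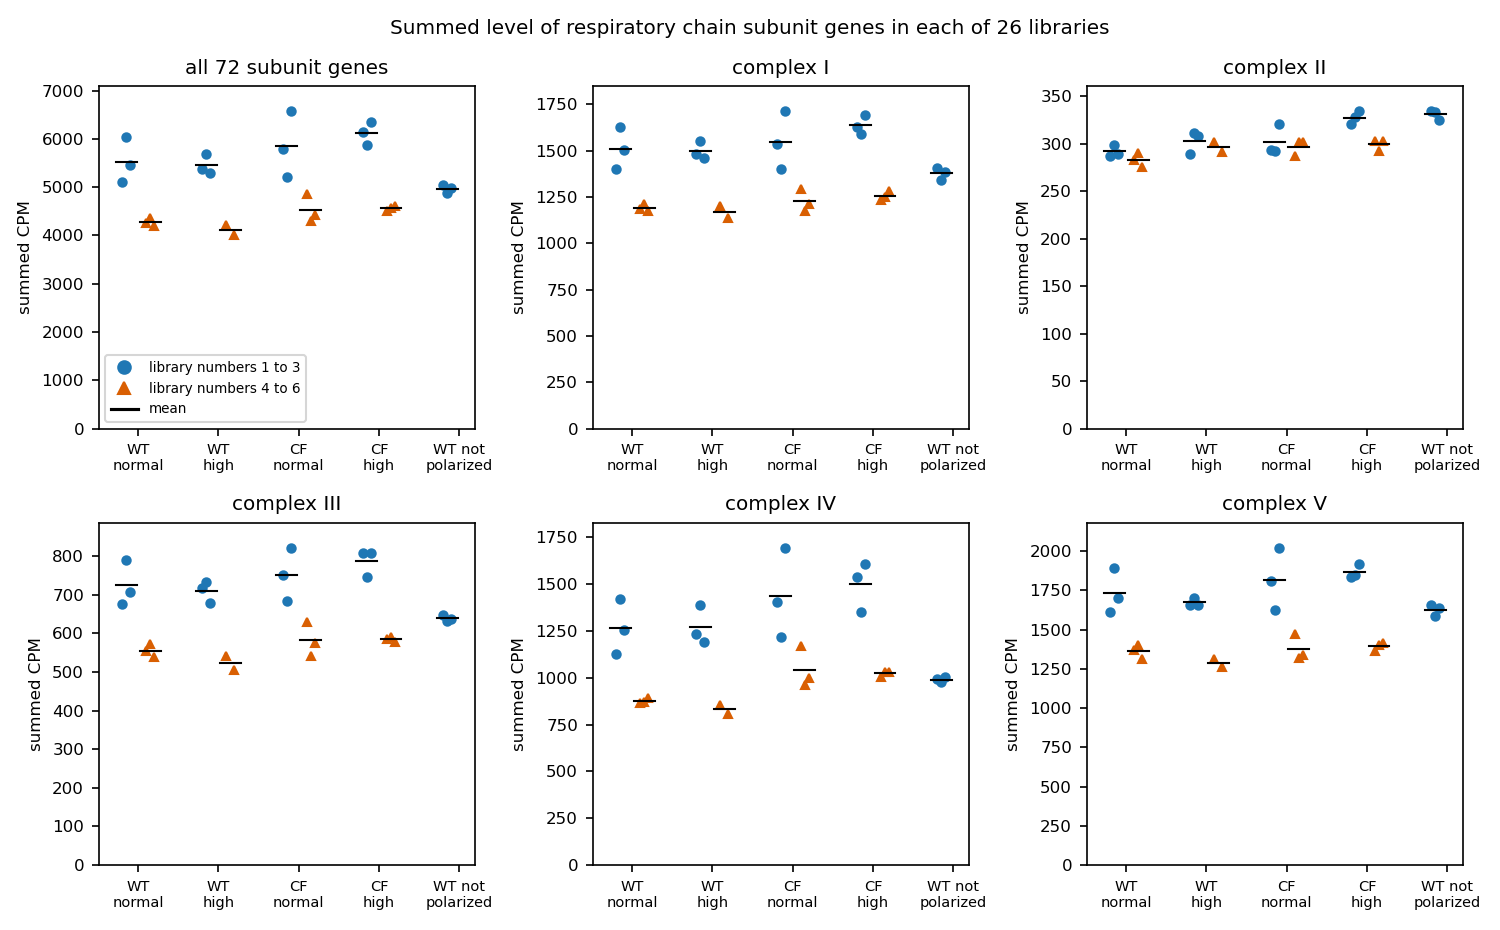
Summed CPM (y axis, from 0) of all 72 members and of each complex in each library, by group (x axis); circles are library numbers 1 to 3, triangles 4 to 6, and black lines their means. In every glucose group the summed level of all members is lower in numbers 4 to 6, with complex II showing the smallest gap.

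COX7B (chrX:77899438-77907373, hg38), a small accessory subunit of complex IV, had the lowest fold change between the sets. In WT cells in normal glucose it stood at 76.5, 93.9 and 84.1 CPM in libraries 1 to 3 and at 50.9, 46.2 and 46.5 CPM in libraries 4 to 6. The sets were apart in this and in the 3 other glucose groups. The log2 fold change of numbers 4 to 6 against 1 to 3 was -0.95 ± 0.08 (SE, adjusted p = 2.74e-09). This split was put in the fit because earlier results of these data showed a difference along it. Its p-values and calls are therefore no independent test. NDUFS4, a complex I subunit needed for its assembly, stood at 48.1, 70.1 and 59.5 CPM in libraries 1 to 3 of that group and at 31.8, 33.8 and 35.3 CPM in libraries 4 to 6. Its log2 fold change was -0.86 ± 0.08.

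Of the 66 members, 56 were called lower in numbers 4 to 6 and 3 higher. Over all genes tested, 48.8% were called, 24.5% higher and 24.3% lower, so the members' 84.8% called lower stood above the background. The median log2 fold change was -0.28 for the members and 0.01 for all genes tested. Complex V had 16 of 16 tested members lower, complex III 8 of 8, complex IV 9 of 10 and complex I 21 of 29. Every library of 4 to 6 lay below every library of 1 to 3 in all 4 glucose groups for 33 members. The same count was not made over all genes, so it is not read as particular to the members. The lowest values after COX7B belonged to ATP5F1E (-0.90), the epsilon subunit of ATP synthase, NDUFB3 (-0.86), COX7C (-0.86), NDUFB6 (-0.83) and NDUFA1 (-0.83). The members called higher were SDHA (0.11), NDUFA10 (0.08) and COX6B2 (0.57).

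In complex II, SDHB was lower by a log2 fold change of -0.27, near the median of the members, and SDHC by -0.10. Of the core subunits of complex I, NDUFS1 was lower by -0.08 and NDUFS7 by -0.18. Leaving out 1 library lost the calls of NDUFS1 in 9 fits, of NDUFS7 and NDUFA10 in 13 each and of NDUFV3 (-0.09) in 11. COX4I1 was lower by -0.26, COX6A1 by -0.46, COX6B1 by -0.14 and COX7A2 by -0.79. ATP5IF1 was lower by -0.44, and ATP5MC1, ATP5MC2 and ATP5MC3 by -0.22 to -0.29. NDUFA4L2 was not called.

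Transcript length and other gene groups moved with this difference. Members with a principal transcript of up to 600 bases had a median of -0.45 (19 genes), against -0.27 for 179 other protein-coding genes of that length. Members above 2400 bases had a median of -0.13 (8 genes), against 0.05 for 7940 others. Cytosolic ribosomal protein genes were lower in 65 of 69, mitochondrial ribosomal protein genes in 53 of 64 and assembly factors of the chain in 24 of 37. Of all genes tested, 24.3% were called lower and 24.5% higher. The messages encoded in mitochondrial DNA went the other way, with 8 of 13 higher, none called lower and a median of 0.28. The part of transcript length and of RNA quality in the members' difference was not tested.

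**Figure D2:**
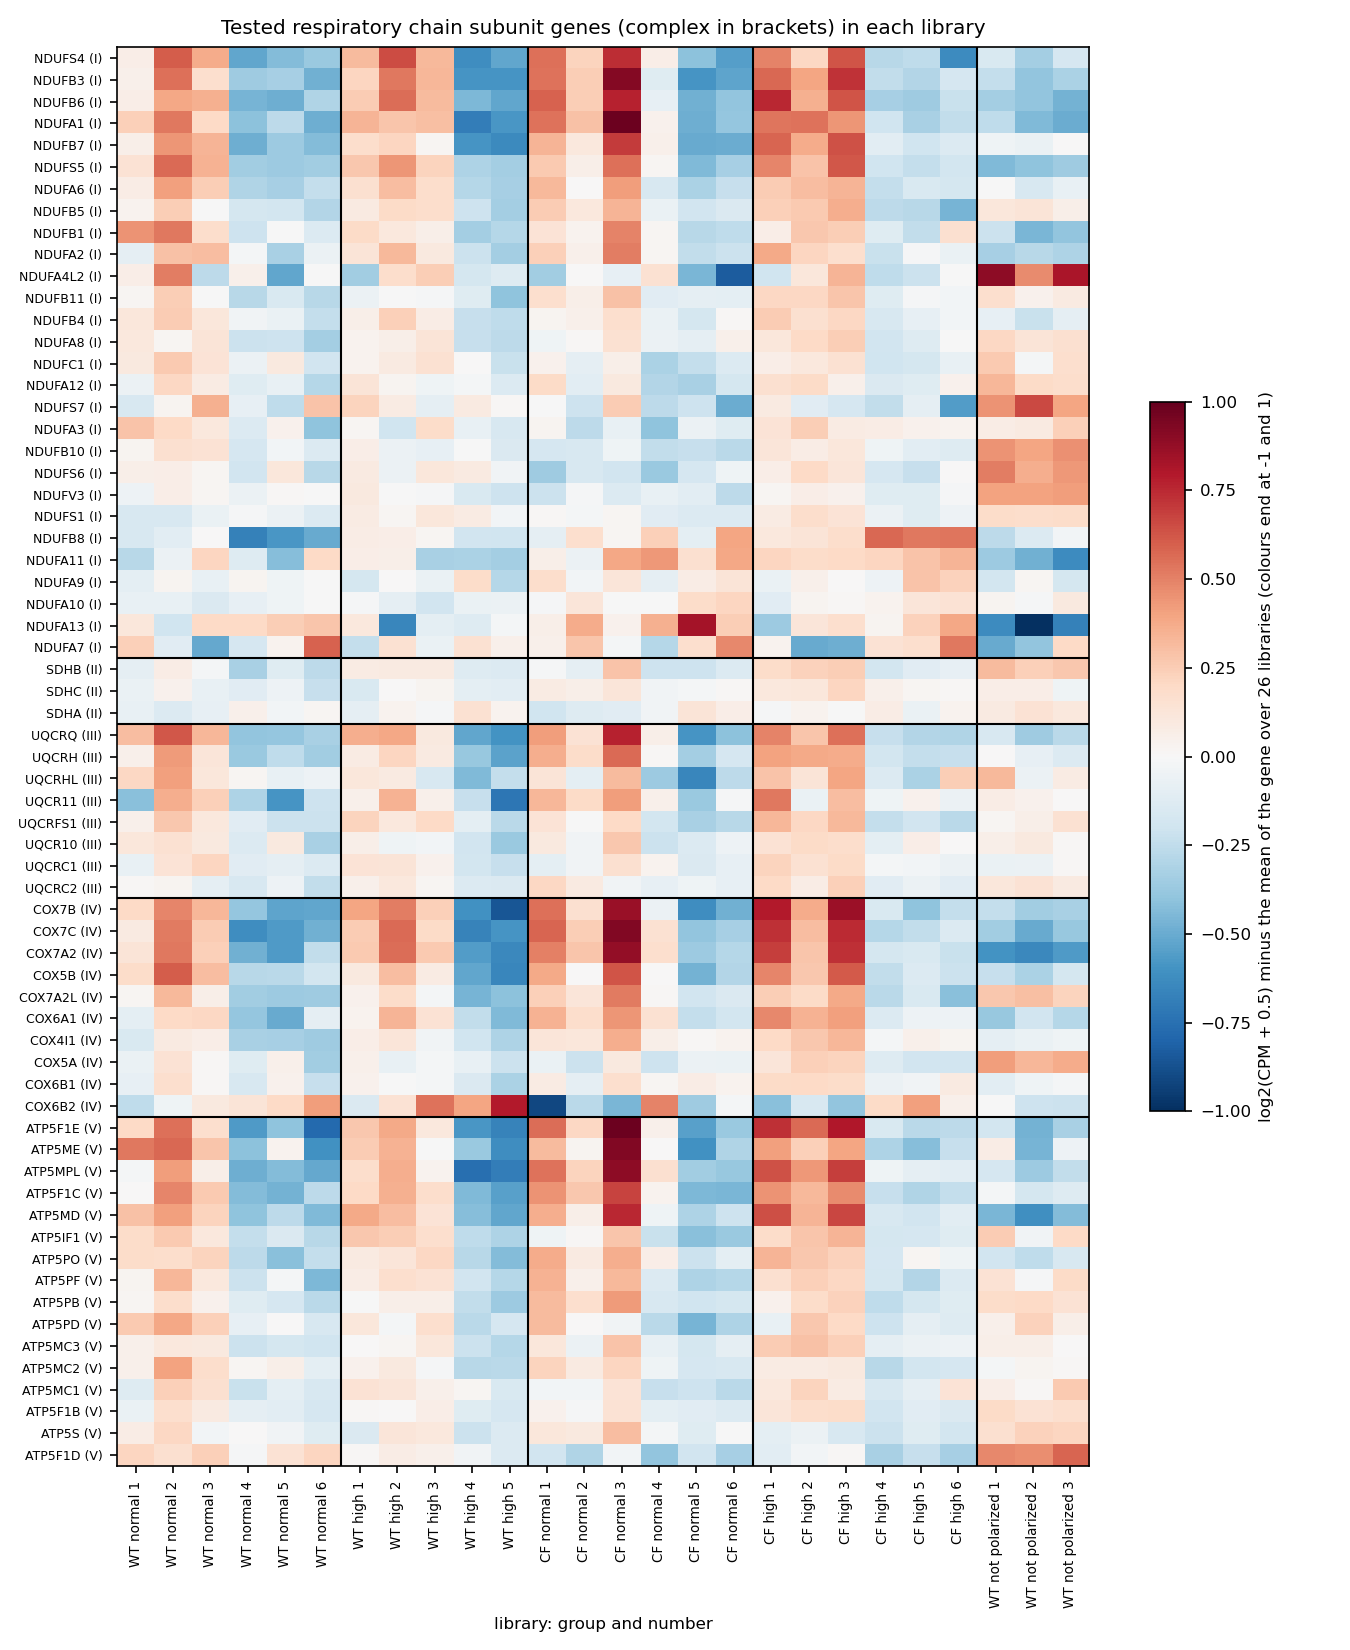
Level of the tested members, with 1 left out (rows, by complex and by its difference between the sets) in each library (columns), as log2(CPM + 0.5) minus the gene's mean over the 26 libraries. Upper rows of complexes I, III, IV and V are red in numbers 1 to 3 and blue in numbers 4 to 6 of each glucose group, and the not polarized libraries have a pattern of their own.

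CF and WT cells were compared at each glucose level to ask whether the lines differ in these genes. In high glucose, 20 members were higher in CF cells and 1 lower. Of all genes, 30.7% were called, 15.5% higher and 15.2% lower. The share of members called, 31.8%, was near that background, but it divided into 30.3% higher and 1.52% lower. The median log2 fold change was 0.13 for the members and 0.01 for all genes.

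Complex IV had the largest share, with 7 of 10 tested members higher and 1 lower. COX4I1, the regulatory subunit that takes part in ATP control of the enzyme, stood at 284, 296, 266, 237 and 219 CPM in the 5 WT libraries in high glucose and at 268 to 343 CPM (median 297) in the 6 CF libraries. The groups overlapped over both sets, whereas within each set every CF library was above every WT library. The log2 fold change was 0.24 ± 0.05 (SE, adjusted p = 0.000148), and it was 0.22 in libraries 1 to 3 alone and 0.25 in libraries 4 to 6 alone. COX5B, a zinc-binding subunit, was higher by a log2 fold change of 0.33, COX7B by 0.36, COX7C by 0.32, COX6A1 by 0.25, COX6B1 by 0.20 and COX7A2L, a factor of supercomplexes, by 0.18. COX7A2 had a log2 fold change of 0.29 (adjusted p = 0.0601). The lower member was COX6B2 (-0.57), at 1.58 to 3.48 CPM in WT and 1.23 to 2.56 CPM in CF libraries, and its call was lost in 5 of the fits that left out 1 library. The call of COX7C (adjusted p = 0.0476) was lost in a fit with the library number as a block (adjusted p = 0.0874) and in 14 of the fits that left out 1 library. Such fits lost the call of COX7A2L in 3, of COX7B in 2 and of COX6A1 in 1.

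In complex I, 5 of 29 members were higher in CF cells in high glucose and none lower. NDUFA11 (chr19:5891276-5904006), an accessory subunit of the membrane arm, stood at 19.1, 19.0, 14.5, 14.6 and 14.3 CPM in WT libraries and at 20.8 to 23.2 CPM (median 21.3) in CF libraries. The groups did not overlap, and the log2 fold change was 0.42 ± 0.11 (SE, adjusted p = 0.00246). It was 0.27 (adjusted p = 0.146) in libraries 1 to 3 and 0.60 in libraries 4 to 6. NDUFB7 was higher by 0.43, NDUFB11 by 0.24 and NDUFA1 by 0.28, all accessory subunits, and the call of NDUFA1 was lost in 3 of the fits that left out 1 library. NDUFB8 was higher by 0.43, but this rested on the second set: the log2 fold change was 0.09 (adjusted p = 0.694) in libraries 1 to 3 and 0.76 in libraries 4 to 6. NDUFA11 and NDUFB8 overlap protein-coding genes on the same strand, which leaves their values at both glucose levels uncertain. The core subunits NDUFS1 (-0.02) and NDUFS7 (-0.24, adjusted p = 0.103) were not called.

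In complex V, 5 of 16 members were higher in CF cells in high glucose. ATP5MPL, a small membrane subunit, had the largest value at 0.50 ± 0.11 (SE, adjusted p = 0.00154), followed by ATP5F1E at 0.43, ATP5MD at 0.29, ATP5PO (the stalk subunit OSCP) at 0.21 and ATP5MC3 at 0.20. ATP5MC1 and ATP5MC2 had values of 0.04 and 0.05 and were not called. ATP5F1B had a log2 fold change of 0.07, and ATP5IF1 of 0.08, without a call. In complex III, UQCRH was higher by 0.25 and UQCR10 by 0.22. In complex II, SDHC was higher by 0.16, while SDHA (-0.02) and SDHB (0.07) were not called.

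In normal glucose, 12 members were higher in CF cells and 6 lower, with a median log2 fold change of 0.06. Over all genes tested, 34.6% were called, 17.2% higher and 17.4% lower, so the members' share of 27.3% called was below the background and the 18.2% called higher was near it. Of the 12, 11 were also higher in high glucose, which was 91.7% of the first list and 55% of the second. Over all genes, the shared genes were 63% and 70.1% of the lists called higher. No library was common to the comparisons.

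COX4I1 in normal glucose stood at 212 to 290.2 CPM (median 231) in 6 WT libraries and at 274 to 349 CPM (median 289) in 6 CF libraries. The groups overlapped, and the log2 fold change was 0.28 ± 0.05 (SE, adjusted p = 4.82e-06). In all, 4 complex IV members were higher, COX7C (0.35), COX6A1 (0.23) and COX7A2L (0.21) being the others. In complex I, NDUFB8 was higher by 0.46, NDUFA11 by 0.31 and NDUFA10 by 0.16. NDUFB8 stood at 7.15, 7.43 and 8.07 CPM in WT libraries 1 to 3 and at 4.85, 5.21 and 5.53 CPM in libraries 4 to 6, against 7.54, 9.12 and 8.15 CPM and 9.56, 7.5 and 10.8 CPM in CF cells. The groups overlapped in libraries 1 to 3 and were apart in libraries 4 to 6. Its log2 fold change was 0.13 (adjusted p = 0.533) in the first set and 0.83 in the second. ATP5MPL was higher by 0.36, ATP5F1E by 0.30, ATP5PO by 0.15, UQCRH by 0.17 and SDHC by 0.12.

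The 6 members lower in CF cells in normal glucose were led by ATP5F1D (chr19:1241746-1244826), the delta subunit of the ATP synthase stalk. It stood at 36.7 to 43.6 CPM (median 42.1) in WT libraries and at 28.0 to 36.3 CPM (median 31.1) in CF libraries. The groups did not overlap, and the log2 fold change was -0.40 ± 0.06 (SE, adjusted p = 1.75e-07). It was -0.38 in libraries 1 to 3 and -0.43 in libraries 4 to 6. In high glucose its log2 fold change was -0.15, without a call. The others were ATP5PD (-0.23), a stalk subunit, and in complex I NDUFB10 (-0.19), NDUFS6 (-0.18), NDUFC1 (-0.17) and NDUFV3 (-0.13, adjusted p = 0.0489). Leaving out 1 library lost the call of NDUFV3 in 21 fits, of NDUFS6 in 6, of ATP5F1E in 7, of ATP5PO in 6, of SDHC and UQCRH in 4 each, of COX7C in 2 and of NDUFA11 and NDUFC1 in 1 each.

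**Figure D3:**
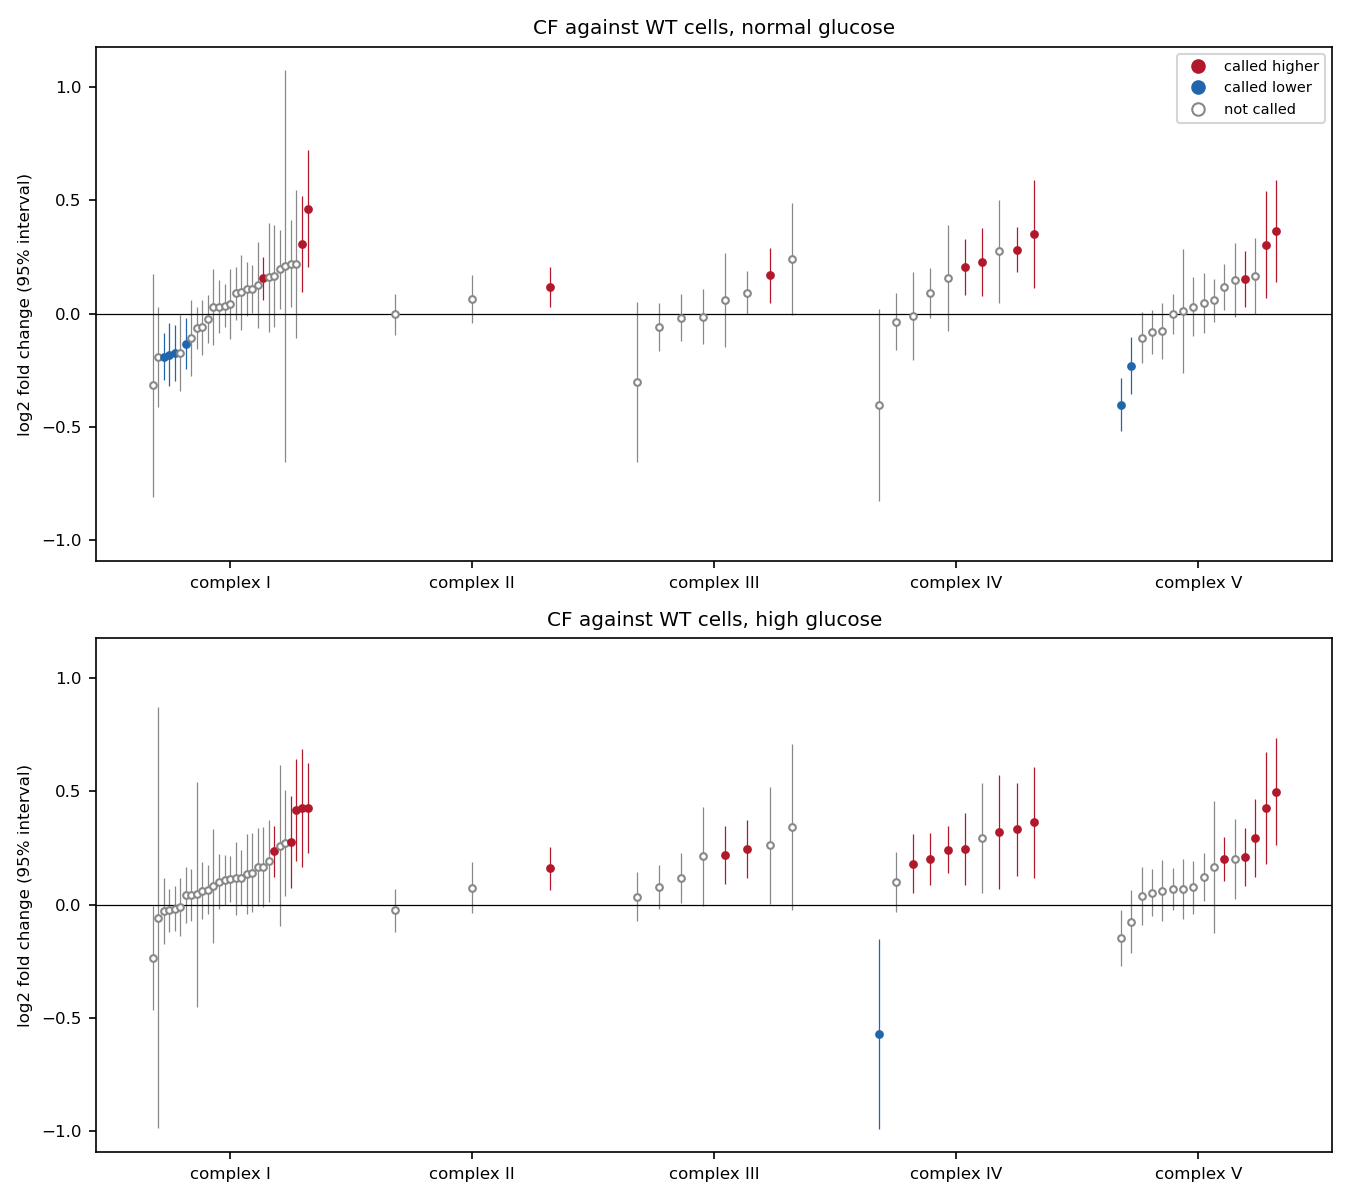
Log2 fold change of CF against WT cells (y axis) for each tested member by complex (x axis), in normal glucose (upper) and high glucose (lower); points are estimates, lines 95% intervals, and filled points were called. In high glucose the called points lie above 0 in all 5 complexes, with COX6B2 of complex IV as the exception, whereas in normal glucose 6 called points of complexes I and V lie below 0.

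The number of members called differed between fits of the library sets. The shares of all genes called in these fits are not given here, so the changes in count are not read as particular to the members. With libraries 1 to 3 alone, 9 members were called in high glucose, all higher, and with libraries 4 to 6 alone 14, all higher. In normal glucose, libraries 1 to 3 gave 2 higher and 4 lower, and libraries 4 to 6 gave 9 higher and 2 lower. Without the term for the sets, 3 members were called in high and 6 in normal glucose. The median log2 fold change of the members was above 0 in all of these fits, at 0.05 to 0.15.

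Other gene groups moved with the CF comparison. The shares of all genes called higher and lower were 17.2% and 17.4% in normal and 15.5% and 15.2% in high glucose. Cytosolic ribosomal protein genes were higher in CF cells in 60 of 69 in normal glucose and 63 of 69 in high glucose, with medians of 0.32 and 0.38. Mitochondrial ribosomal protein genes were higher in 10 and lower in 3 of 64 in normal glucose. In high glucose 15 of the 64 (23.4%) were higher and 0 lower, with a median of 0.09, so the excess of higher calls was not particular to the members. Assembly factors were higher in 2 and lower in 1 of 37 in normal glucose, and higher in 9 of 37 in high glucose, among them UQCC2 (0.27) and UQCC1 (0.22), both factors of complex III, and SDHAF4 (0.50) of complex II. Messages from mitochondrial DNA were lower in 6 of 13 in normal glucose, among them MT-ND3 (-0.45) and MT-CYB (-0.40), and in 0 of 13 in high glucose. POLRMT, the mitochondrial RNA polymerase, was lower by -0.57 in normal and by -0.37 in high glucose, and was the only 1 of 10 biogenesis regulators called at either level. Members with transcripts of up to 600 bases had a median of 0.20 in high glucose and 0.06 in normal glucose, and other protein-coding genes of that length 0.17 and 0.11. The 5 endothelial markers summed to 20.1 to 25.4 CPM in WT and 32.6 to 64.6 CPM in CF libraries in normal glucose and to 22.4 to 29.6 and 43.4 to 50.0 CPM in high glucose, with CDH5 and KDR called higher. The other tested endothelial marker had log2 fold changes of -0.40 in normal and -0.26 in high glucose, without a call. The 6 fibroblast markers summed to 27.4 to 44.3 and 15.4 to 25.9 CPM in normal glucose and to 27.3 to 42.0 and 19.2 to 30.1 CPM in high glucose, with COL1A1 called lower. The other tested fibroblast marker went the other way, with 0.41 in normal and 0.66 in high glucose, without a call. Airway epithelial markers were higher in 4 and 5 of 9. The part of these genes and of transcript length in the members' difference was not tested. The ETS letters stood in 44.4% of the 18 matched promoters of members called higher in high glucose and in 20.5% of 39 other tested members. The YY1 letters stood in 0 and 8 of them, the NRF1 letters in 1 and 8, and the SP1 letters in 72.2% and 61.5%. Whether these shares differ was not tested.

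High glucose was set against normal glucose in each line, which is the question of the series. In the WT line, 1 member was higher and 2 lower, and the median log2 fold change was -0.04. Of the 17036 genes tested, 9.52% were called, 4.4% higher and 5.11% lower, so the members' 4.55% was below the background. ATP5MC2, a gene for the c-ring, stood at 114 to 162 CPM (median 127) in normal glucose and at 101 to 131 CPM (median 121) in high glucose. The groups overlapped, and the log2 fold change was -0.22 ± 0.05 (SE, adjusted p = 0.00241). ATP5F1D was lower by -0.19 (adjusted p = 0.0349). NDUFS1, the largest core subunit of complex I, was higher by 0.14 ± 0.05 (SE, adjusted p = 0.0426), with 111 to 123 CPM (median 116) in normal and 122 to 135 CPM (median 132) in high glucose, which overlapped. Leaving out 1 library lost the call of ATP5F1D in 7 fits and of NDUFS1 in 8, and without the term for the sets no member was called.

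In CF cells, 4 members were higher in high glucose and 1 lower, with a median log2 fold change of 0.05. Over all genes tested, 17.9% were called, 8.95% higher and 8.95% lower, and the members' share was 7.58%. NDUFA3, an accessory subunit of complex I, stood at 15.1 to 20.4 CPM (median 18.7) in normal glucose and at 20.6 to 23.9 CPM (median 21.2) in high glucose. The groups did not overlap, and the log2 fold change was 0.25 ± 0.08 (SE, adjusted p = 0.022). NDUFS6, a zinc-binding subunit of complex I, was higher by 0.22, NDUFB10 by 0.20 and the inhibitor ATP5IF1 by 0.18. ATP5S was lower by -0.21. Leaving out 1 library lost the calls of NDUFA3, NDUFS6 and ATP5S in 2 fits each. NDUFS6 had a log2 fold change of 0.37 in libraries 1 to 3 and of 0.06 (adjusted p = 0.772) in libraries 4 to 6. Libraries 1 to 3 alone gave 4 calls and libraries 4 to 6 alone none, and the shares of all genes in these fits are not given here.

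The response to glucose of CF cells minus that of WT cells tests both whether the responses differ and whether the CF difference depends on glucose. No member was called in the edgeR fit of all libraries, and 12 had an unadjusted p under 0.05. DESeq2 called NDUFB10 (0.25, adjusted p = 0.0228), and so did edgeR with a stricter filter on low counts (adjusted p = 0.0434). Without any filter on low counts edgeR called ATP5PD (adjusted p = 0.0293). Among all genes, 1.4% were called, 0.704% higher and 0.693% lower. The members' median was 0.08, with 51 of 66 values above 0. NDUFB10 had a value of 0.26 ± 0.07 (SE, adjusted p = 0.0554) and ATP5PD of 0.30 ± 0.09 (SE, adjusted p = 0.0692) with edgeR. NDUFB10 stood at 45.1 to 56.7 CPM (median 50.7) in WT cells in normal glucose and at 53.1, 48.6, 47.9, 50.6 and 45.7 CPM in high glucose, and in CF cells at 42.0 to 49.3 CPM (median 44.0) and 46.3 to 55.3 CPM (median 51.4). The larger count of members higher in CF cells in high than in normal glucose was therefore not shown to differ between the levels.

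**Figure D4:**
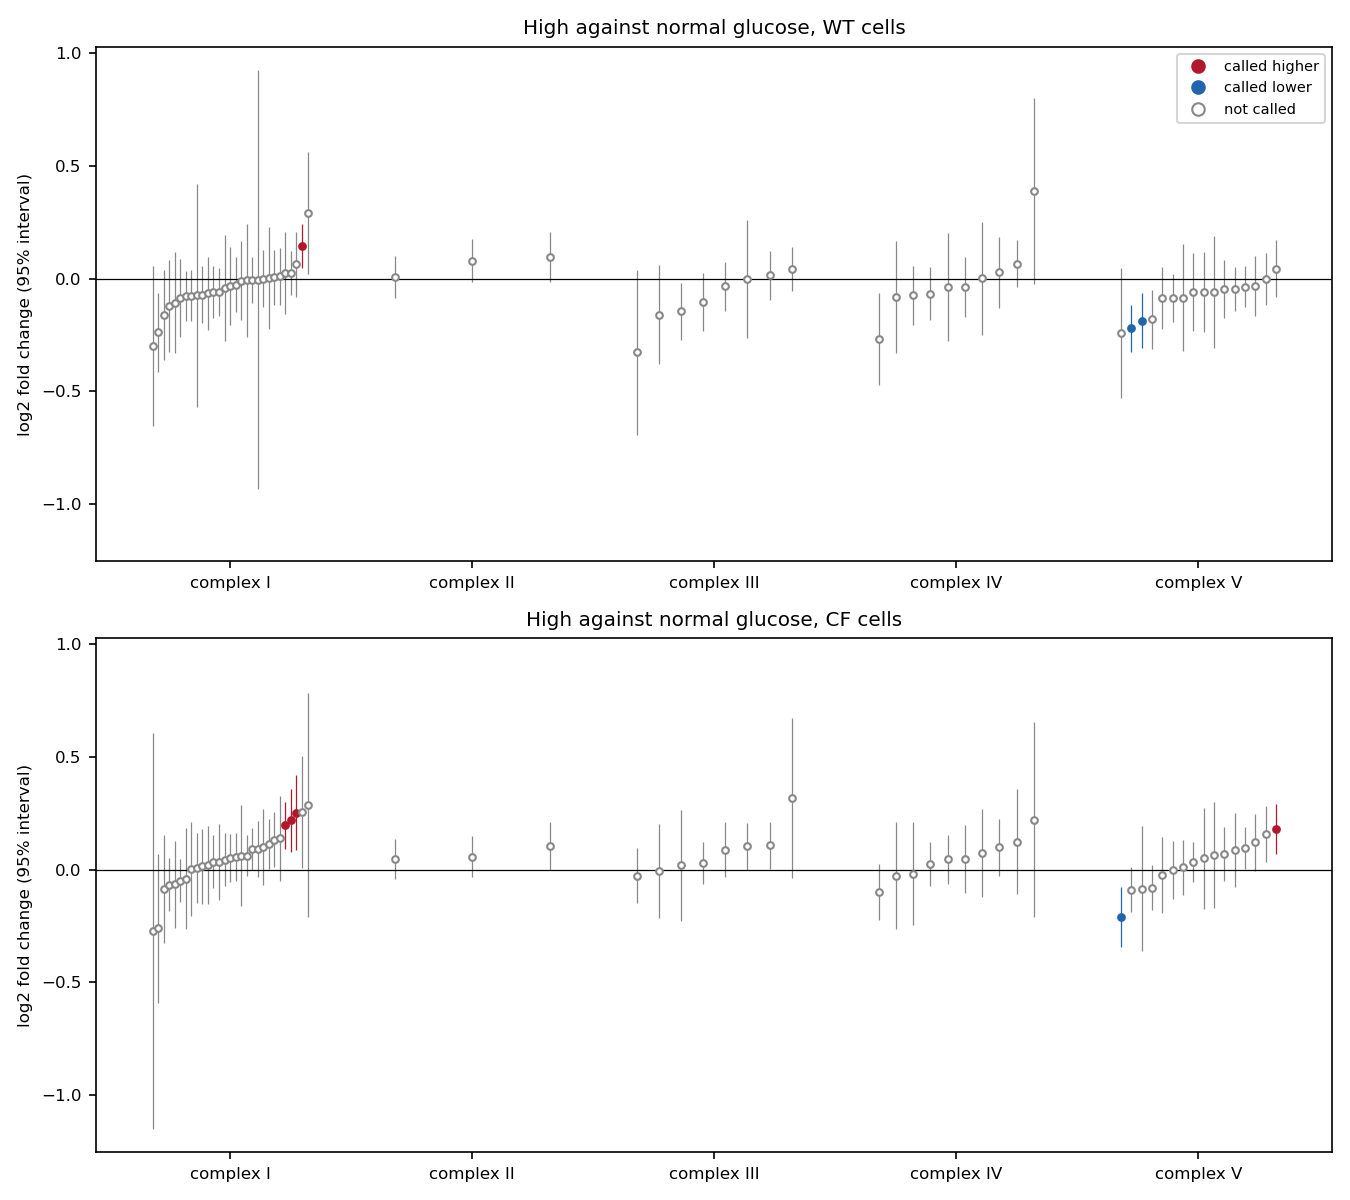
Log2 fold change of high against normal glucose (y axis) for each tested member by complex (x axis), in WT cells (upper) and CF cells (lower); points are estimates, lines 95% intervals, and filled points were called. Points run from -0.33 (UQCRHL) to 0.39 (COX6B2) in WT cells and from -0.27 (NDUFA7) to 0.32 (UQCRHL) in CF cells, with 3 and 5 called.

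WT cells labelled not polarized were set against WT cells in normal glucose, the group of the same line and glucose level. In the fit with the term for the sets, 12 members were higher and 26 lower, with a median of -0.07. Over all genes tested, 54.5% were called, 26.6% higher and 27.9% lower, so the members' 57.6% called was near the background, with 18.2% higher and 39.4% lower.

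Which members moved depended on the WT libraries they were set against. Against WT libraries 1 to 3 alone, 11 members were higher and 24 lower. Against WT libraries 4 to 6 alone, a comparison added after the data were seen, 36 were higher and 5 lower, with a median of 0.20. The shares of all genes called in these fits are not given here, so whether the change is particular to the members is not shown. Of the members, 10 were higher against either set and 5 were lower against either. A further 4, NDUFS4, NDUFA6, UQCRH and ATP5F1C, were lower against the first set and higher against the second. Another 22 were not called against the first set and higher against the second. In turn, 15 were lower against the first set and not called against the second. The not polarized libraries carried the numbers 1 to 3, and whether they belong with either set is not said in the labels. Polarization and library set therefore cannot be told apart, for the members that changed direction or for any other member.

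The members higher against either set included NDUFS1, NDUFS6, NDUFS7, NDUFB10, NDUFV3 and NDUFA4L2 of complex I, SDHB, COX5A and ATP5F1D. In the fit of all libraries the core subunits NDUFS1 and NDUFS7 had log2 fold changes of 0.24 and 0.38. SDHB stood at 95.6, 90.7 and 92.6 CPM in the not polarized libraries and at 61.2 to 81.1 CPM (median 71.5) in the WT libraries in normal glucose. The groups did not overlap, and the log2 fold change was 0.26 ± 0.06 (SE, adjusted p = 0.000606). ATP5F1D stood at 51.7, 51.2 and 55.5 CPM against 36.7 to 43.6 CPM, without overlap, at 0.28 ± 0.07. NDUFS6 was higher by 0.42, NDUFV3, a flavoprotein accessory subunit, by 0.37, NDUFB10 by 0.36 and COX5A, a subunit of complex IV, by 0.33. NDUFA4L2, a paralogue of NDUFA4 induced by hypoxia in other cells, stood at 3.03, 2.14 and 2.85 CPM against 0.828 to 2.22 CPM (median 1.43), which overlapped, with a log2 fold change of 0.77 ± 0.26 (SE, adjusted p = 0.0127). Leaving out 1 library lost the calls of NDUFA4L2 and NDUFS7 in 1 fit each.

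The 5 members lower against either set were NDUFA13, COX7A2, NDUFB1, NDUFA11 and NDUFA2. Of these, NDUFA13 and NDUFA11 overlap protein-coding genes on the same strand and NDUFA2 on the opposite strand, which leaves their values uncertain. NDUFA13, also known as GRIM-19, stood at 1.74, 1.02 and 1.67 CPM in the not polarized libraries and at 2.52 to 3.71 CPM (median 3.49) in the WT libraries, with a log2 fold change of -1.05 ± 0.23 (SE, adjusted p = 0.000163). COX7A2 stood at 97.6, 94.1 and 99.5 CPM against 162, 213 and 175 CPM in WT libraries 1 to 3 and 106, 99.9 and 125 CPM in libraries 4 to 6. The groups did not overlap for either gene, and the highest not polarized library for COX7A2, at 99.5 CPM, was close to the lowest WT library. Its log2 fold change was -0.94 against all libraries with the set term, -0.92 against the first set and -0.21 against the second.

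Other small subunits were lower in the fit of all libraries but did not keep that against the second set. ATP5MD had log2 fold changes of -0.83 with all libraries, -0.83 against the first set and -0.16 (adjusted p = 0.098) against the second. NDUFA1 had -0.79, -0.74 and -0.04, NDUFB6 had -0.75, -0.70 and -0.01, and NDUFS5 had -0.73, -0.77 and -0.07. COX7B (-0.71, -0.66 and 0.15) and COX7C (-0.71, -0.71 and 0.12) had values of opposite sign, not called against the second set (adjusted p = 0.0576 and 0.0581). SDHA was higher with all libraries by 0.21 and had 0.07 (adjusted p = 0.214) against the second set, and COX4I1, ATP5IF1 and ATP5MC3 were called higher against the second set and not against the first, by 0.24, 0.34 and 0.21.

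**Figure D5:**
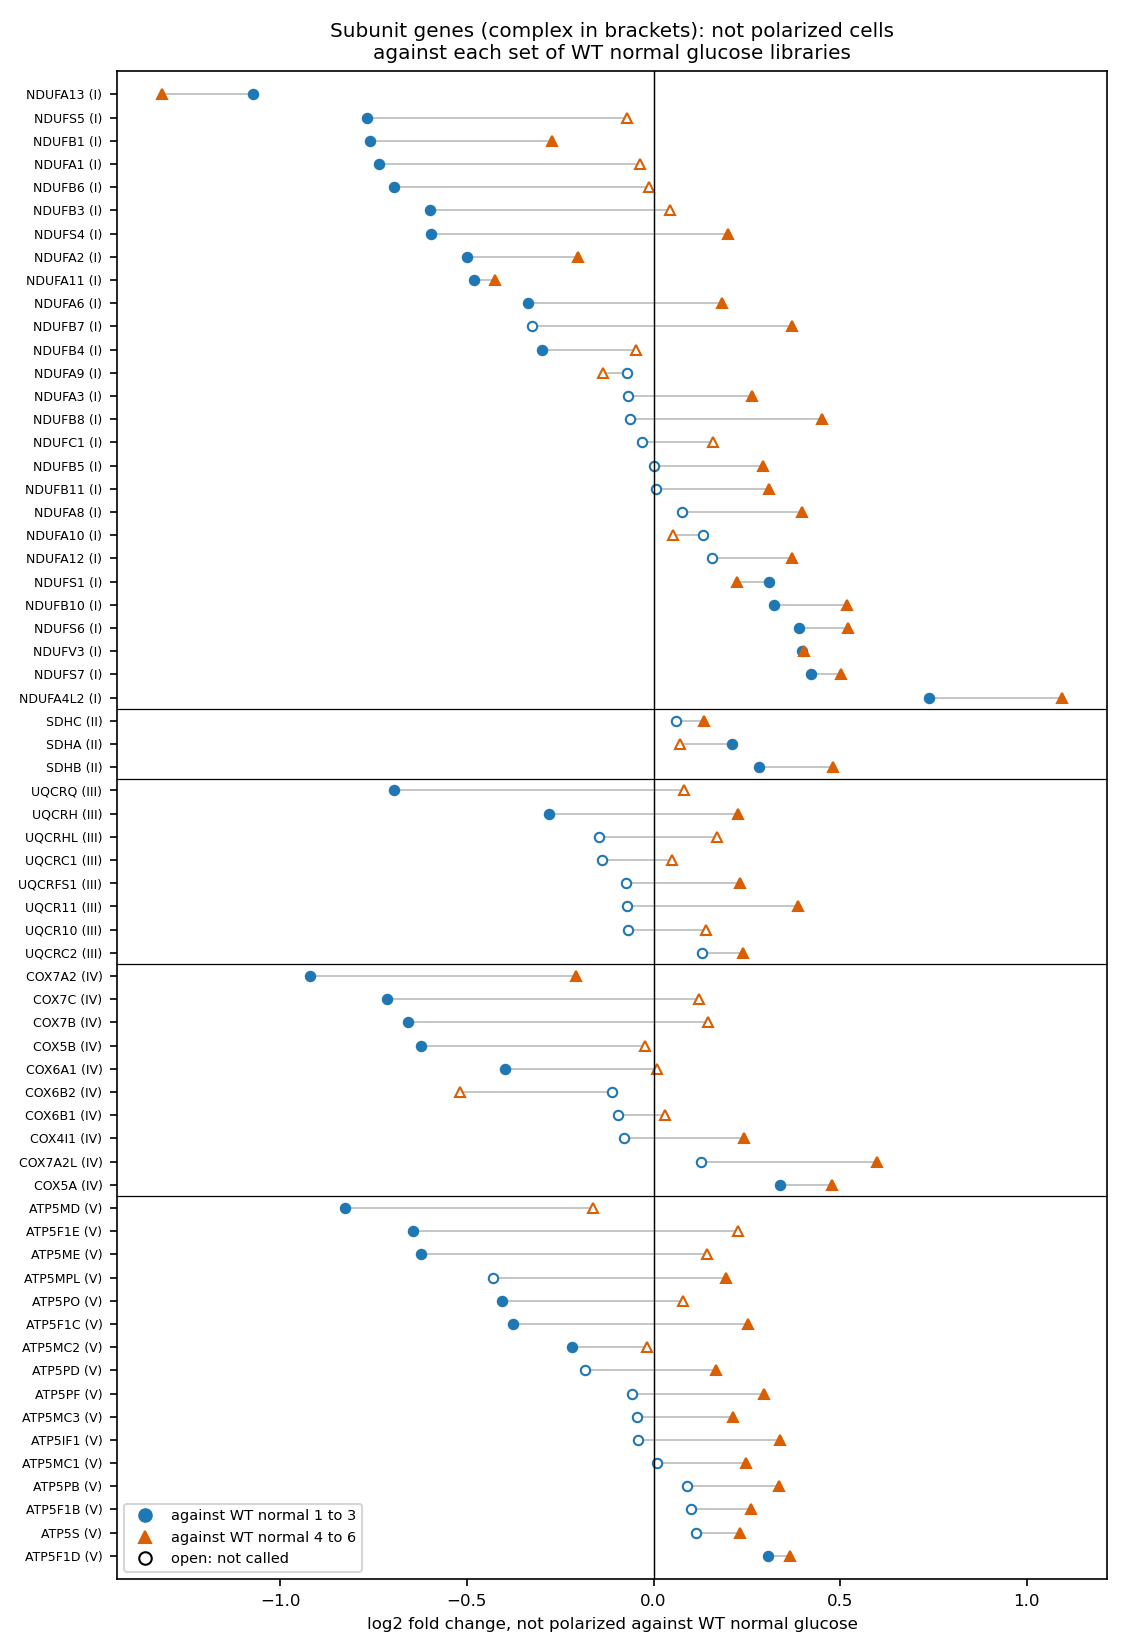
Log2 fold change of not polarized WT cells against WT cells in normal glucose (x axis) for members tested against both sets, with 1 left out (rows, by complex); circles are against library numbers 1 to 3, triangles against 4 to 6, and filled symbols were called. Triangles lie to the right of circles for most members, and COX7A2, NDUFA11, NDUFA13, NDUFA2 and NDUFB1 have filled symbols below 0 against both sets.

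Messages from mitochondrial DNA were lower in the not polarized cells in 6 of 13 and higher in none, with MT-ND6 at -1.43, MT-CO2 at -0.76 and MT-ND5 at -1.07. Assembly factors were higher in 11 and lower in 6 of 37, with the complex IV factors COA7 at 0.76 and COX17 at -0.86, and mitochondrial ribosomal protein genes were higher in 26 and lower in 13 of 64. Of all genes tested, 54.5% were called, against 46.2% of messages from mitochondrial DNA, 45.9% of assembly factors and 60.9% of mitochondrial ribosomal protein genes. These shares were below or near the background, so the counts are not read as particular to these groups. The counts and shares are from the fit of all libraries with the set term. Members with transcripts of up to 600 bases had a median of -0.41 there, against -0.23 for other protein-coding genes of that length, and those above 2400 bases had 0.09 against 0.05. Airway epithelial markers were higher in 2 and lower in 6 of 9. Endothelial markers summed to 45.0 to 49.0 CPM in the not polarized libraries, against 20.1 to 25.4 CPM in the WT libraries, and fibroblast markers to 13.3 to 14.7 CPM against 27.4 to 44.3 CPM. Of 3 tested endothelial markers 2 were called higher, and the other had a log2 fold change of -0.19, without a call. Of 2 tested fibroblast markers 1 was called lower, and the other had 0.38, without a call. Their part in the members' difference was not tested.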

How the data were processed

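RNA of 26 libraries was captured with poly-T beads and sequenced, per the labels' protocols. HISAT2 and hg38 are named in the submitters' processing notes, and the counting tool, versions and strand setting were not given in the sources used here. Raw counts and FPKM were deposited by the authors for every gene. The deposited FPKM divided by count per base gave 1 constant in each library, and all 58735 gene positions equalled GENCODE 29 on GRCh38. No column of another sample was found (0 columns).

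Counts were fitted in R 4.3.3 with edgeR 4.0.16 (TMM, filterByExpr by group with minimum count 10 and minimum total 15, robust quasi-likelihood) over all libraries, with 5 group means and a term for library numbers 4 to 6 against 1 to 3, leaving 20 residual degrees of freedom. This tested 17036 genes. P-values were adjusted by Benjamini-Hochberg over all of them, and an adjusted p under 0.05 was called. CPM used TMM-adjusted totals, and intervals are 95%. Alternatives were DESeq2 1.42.0, limma 3.58.1 on log2 FPKM, other factors and filters, the library sets alone, a block for library number and each library left out. The code was tested on simulated data. The values of 1 member are not reported here, and it stays in the counts and sums.

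Members, gene lists and the rule for named genes were chosen with earlier results of these data known. The rule took, per comparison, up to 8 called members higher and 8 lower by size of the log2 fold change averaging 1 CPM or more in some group, fixed isoforms, the member with the highest FPKM of each complex, and up to 3 called genes of each other list by p. Other called members were named after their values were seen. Same-numbered libraries deviated together in every pair (r over 0.1) for glucose in CF cells (mean r 0.312 over 6 pairs) and for CF against WT in high glucose (0.272 over 5 pairs), and other numbers of the same set did so by as much (0.293 and 0.274). In the other comparisons not every pair passed. A library's best match was its own number in 2 of 6 pairs for glucose in CF cells and in 1 of 5 for CF against WT in high glucose. Any pairing by number would rest on these correlations, not on the labels, and they do not single out the same number.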

Additional observations from a re-analysis of the deposited data

Results flagged for a closer look

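Within the 4 glucose groups, of 5 or 6 libraries each, values of 43 members named by rule and summed levels of all members and of each complex were searched. Of these 196 groups of values, 3 held a library far from the rest, by a test that marks about 1 in 20 by chance. COX4I1 stood at 349.2 CPM in CF normal glucose library 3, against 274 to 295 CPM in the 5 others. SDHB stood at 94.0 CPM in the same library, against 66.5 to 76.2 CPM. NDUFA13 stood at 5.67 CPM in CF normal glucose library 5, against 3.07 to 3.98 CPM. No difference between the lines in the response to glucose was called for a member in the edgeR fit of all libraries.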

How the results depend on the processing

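Counts of called members moved by more than 1.5 times in these settings. The shares of all genes called in each setting are not given here, so the counts describe the members alone. Without the term for the library sets, 0 members were called for glucose in WT cells, 1 in CF cells, 6 for CF against WT in normal and 3 in high glucose, and 15 for not polarized cells. Libraries 1 to 3 alone gave 1 for glucose in WT cells, 6 for CF against WT in normal glucose and 9 in high glucose, and libraries 4 to 6 alone gave 0 for glucose in CF cells and 11 for CF against WT in normal glucose. For glucose in WT cells, log2(FPKM + 1) without a filter gave 1 and in CF cells 3, and the 23 glucose libraries alone gave 1 in WT cells. The difference between responses had 1 call with DESeq2, without a low-count filter, with a filter of 1 CPM or more in 5 or more libraries and with log2(FPKM + 1) and log2(FPKM + 0.1): ATP5PD without the filter and NDUFB10 in the others. With the library number as a replicate block, 1 member was called for glucose in WT cells, 5 in CF cells, 0 for the difference of responses, 16 and 20 for CF against WT in normal and high glucose, and 38 for not polarized cells. The block lost the calls of NDUFS1 (adjusted p = 0.0778) and ATP5F1D (0.052) for glucose in WT cells and of ATP5F1E (0.0602) and NDUFV3 (0.0653) in normal glucose. Correlations of same-numbered libraries were 0.285 for glucose in WT cells, 0.204 for CF against WT in normal glucose and -0.0106 for not polarized cells.

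Leaving out 1 library gave 1 to 4 calls for glucose in WT cells (1 without WT normal library 6 and without WT high library 1, 3 or 5), 4 to 7 in CF cells, 0 to 2 for the difference, 14 to 25 and 16 to 28 for CF against WT in normal and high glucose, 36 to 41 for not polarized cells and 56 to 60 for the sets. No count between the sets moved by 1.5 times. Against WT libraries 4 to 6 alone, 7 log2 fold changes of not polarized cells, among the members named by rule, changed sign: COX4I1 0.24, COX7C 0.12, UQCRH 0.23, ATP5MC3 0.21, COX6A1 0.0086, ATP5IF1 0.34 and COX7B 0.15. The cause was not tested. Members under 1 CPM are limited by depth, such as NDUFA7 with 171 reads in all.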

Other observations

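Enzymes that feed the chain and carriers that export its ATP moved in part. IDH3A, a subunit of the citrate cycle enzyme isocitrate dehydrogenase, was higher in high glucose in WT cells (0.30) and CF cells (0.22), and citrate synthase CS was higher in both (0.18 and 0.17), 2 of 12 tested genes of the cycle in each line with none lower. Of all genes, 4.4% were called higher in high glucose in WT cells and 8.95% in CF cells. In not polarized cells 6 of the 12 were higher and 2 lower, with IDH3A at 0.52, CS at 0.42 and FH at 0.44. There 26.6% of all genes were called higher and 27.9% lower, and polarization and library set cannot be told apart. SLC25A6, an ADP/ATP carrier, was lower in high glucose in WT cells (-0.24) and in CF cells (-0.14), and was higher in CF than WT cells in normal glucose (0.20) and high glucose (0.30).

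Of 10 tested genes that link hypoxia signalling to mitochondria, 4 were lower in high glucose in WT cells and 6 in CF cells, and none was higher. PDK1, which inhibits pyruvate dehydrogenase, was lower by -0.33 in WT and -0.60 in CF cells, and the oxygen sensor EGLN1 by -0.28 and -0.54. Of all genes, 5.11% were called lower in high glucose in WT cells and 8.95% in CF cells. In not polarized cells 7 of the 10 were lower and 2 higher, with EGLN3 at -5.09 and PDK1 at -1.59. In that comparison 27.9% of all genes were called lower and 26.6% higher, and polarization and library set cannot be told apart. The member NDUFA4L2 was higher in not polarized cells, at a low level of 2.14 to 3.03 CPM. It overlaps SHMT2 on the opposite strand, which leaves its value uncertain.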
